A study of Homo sapiens with 6 samples.

Results

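The epidermal differentiation complex is a run of neighbouring genes on chromosome 1 that encode building blocks of the squamous cell surface. Genes of the S100 calcium-binding proteins flank them. Members were taken by the gene symbol printed on each array row: symbols that begin with S100A, S100B, S100G, S100P or S100Z, with SPRR or with LCE1 to LCE6, and IVL, LOR, FLG, FLG2, HRNR, RPTN, TCHH, TCHHL1 and CRNN, leaving out S100PBP. This gave 58 of the 19184 symbols, on 66 of the 34558 array rows. They comprised 17 S100A genes, 4 S100 genes named with another letter, 7 S100-fused genes, 18 LCE genes, 10 SPRR genes, and IVL and LOR. On chromosome 1 lay 54 of them, by the RefSeq gene annotation, and S100P, S100Z, S100B and S100G lay on chromosomes 4, 5, 21 and X in that order.

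KYSE30 cells, a long-established line from a human squamous carcinoma of the oesophagus, were transfected for 48 h with Lipofectamine and 20 nmol/ml siRNA (the unit as the labels print it). Per the labels, 3 samples received an siRNA against MTA2, which belongs to the NuRD complex of chromatin remodellers and histone deacetylases, and 3 received a negative control siRNA. Samples 4, 5 and 6 carry the MTA2 siRNA label and samples 1, 2 and 3 the control label, and values below are listed in that sample order. The dye field names Cy5 for samples 4 and 6 and Cy3 for sample 5, and Cy5 for sample 2 and Cy3 for samples 1 and 3. Each group rests on 1 siRNA sequence in 1 cell line, and the labels do not say whether its 3 samples were grown and transfected apart. The spread behind every p-value is that of these samples alone and may be technical. The 2 antisense strands, the agents that define the groups, are shown with bases 2 to 8 (the seed, which leads target pairing) in capitals.
MTA2 siRNA: aUAGACGUaaucucccacctt
control siRNA: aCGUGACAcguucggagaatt

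MTA2 itself, the gene targeted, was not lower in the samples labelled for its siRNA. Its log2 intensities were 13.12, 13.18 and 13.52 in the samples labelled MTA2 siRNA, against 12.92, 13.13 and 13.00 in the control samples, with overlap. MTA2 differed by 0.26 (SE 0.17, limma adjusted p = 0.942). Directions below therefore refer to the samples as labelled. Column medians lay between 10.44 and 10.45, and values ran from -0.83 to 16. No detection call was used, and intensities of different rows do not measure relative amounts of different transcripts. The labelled cell type could not be checked by intensity: the mean level of 10 squamous epithelium markers had a median of 11.30, that of 10 blood cell markers (9 leukocyte genes and the erythroid globin HBB) 10.38, that of 8 fibroblast markers 10.06 and that of all symbols 10.47. The blood cell list averaged 10.01, 10.38 and 10.20 in the samples labelled MTA2 siRNA, against 10.26, 10.39 and 10.25 in the control samples, and the part of other cell types in any result was not tested.

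In stratified squamous epithelium, cells leaving the basal layer switch on these genes as they flatten and form the cornified envelope, a protein shell cross-linked by transglutaminases under the plasma membrane. Involucrin (IVL) is laid down early, loricrin (LOR) and the small proline-rich proteins (SPRR) reinforce the shell, and the late cornified envelope proteins (LCE) are added last in skin. The S100-fused proteins, filaggrin (FLG) among them, join an S100 domain to long repeats and bind keratin or envelope proteins. S100 proteins are small EF-hand sensors of calcium that bind annexins, cytoskeletal proteins and, once secreted, surface receptors. The oesophagus keeps a non-cornified form of this program, rich in CRNN and SPRR3, which is commonly reduced in squamous carcinoma.

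The promoters of the subfamilies differed in sequence, and the shortest stretches that show this are printed here. RefSeq promoter windows (GRCh38.p14, 250 bases before to 50 bases after each annotated start) matched 53 of the 58 members, the others being LCE1B, S100A7L2, S100B, SPRR2D and SPRR2E. The AP-1 element was searched as TGANTCA, which reads the same on both strands. It was present in 17 of the 53 windows (32.1%), against 7.76% of 27305 promoters of the same length. It stood in 6 of 7 S100-fused genes, in 6 of 8 SPRR genes, in both IVL and LOR, in 3 of 16 S100A genes and in 0 of 17 LCE genes. AP-1 (Fos and Jun proteins) is a known activator of involucrin and other envelope genes, but a match is only a run of letters. The following windows carry the element in capitals, and those of FLG and TCHH share most of their flanks, as do those of SPRR2A and SPRR2F.
FLG, chr1:152325304-152325326, minus strand: gttaggaaTGAATCAgaccatcc
TCHH, chr1:152115529-152115551, minus strand: gttaggaaTGAATCAggccatcc
IVL, chr1:152908415-152908437, plus strand: gcctgtggTGAGTCAggaagggg
LOR, chr1:153259631-153259653, plus strand: tggatcaaTGAGTCAgggagagc
SPRR2A, chr1:153057695-153057717, minus strand: ggcttctgTGAGTCAggagagct
SPRR2F, chr1:153113698-153113720, minus strand: ggcctctgTGAGTCAggagcact

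A TATA element, searched as TATAAA on both strands, was present in 29 of the 53 member windows (54.7%), against 12% of all promoters. In 24 members it began between 36 and 24 bases before the annotated start. The E-box CACGTG, which also reads the same on both strands, was present in 5 member windows (9.43%), against 7.43% of all promoters, and each of the 5 belonged to an LCE gene. The windows of LCE2A, LCE2B and LCE2D around it have the same letters, and those of LCE2A and LCE2D are printed with the E-box in capitals. The windows of the psoriasin paralogs S100A7 and S100A7A also match each other, with the TATA element in capitals.
LCE2A, chr1:152698250-152698271, plus strand: tgacccagCACGTGcctggttg
LCE2D, chr1:152663284-152663305, plus strand: tgacccagCACGTGcctggttg
S100A7, chr1:153460666-153460687, minus strand: ctgagcctTATAAAggactgct
S100A7A, chr1:153416484-153416505, plus strand: ctgagcctTATAAAggactgct

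The median number of CpG pairs per member window was 3, against 14 over all promoters. The windows of S100A10, S100A6, S100A11 and S100A13 were above that, with 32, 31, 22 and 19 in that order. The S100A windows had a median of 5, the LCE windows 3, the SPRR windows 1.5 and the S100-fused windows 1. The array features themselves are not printed and their sequences were not used here, so rows of close paralogs such as the SPRR2, LCE and S100A7 genes may share signal.

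**Figure D1:**
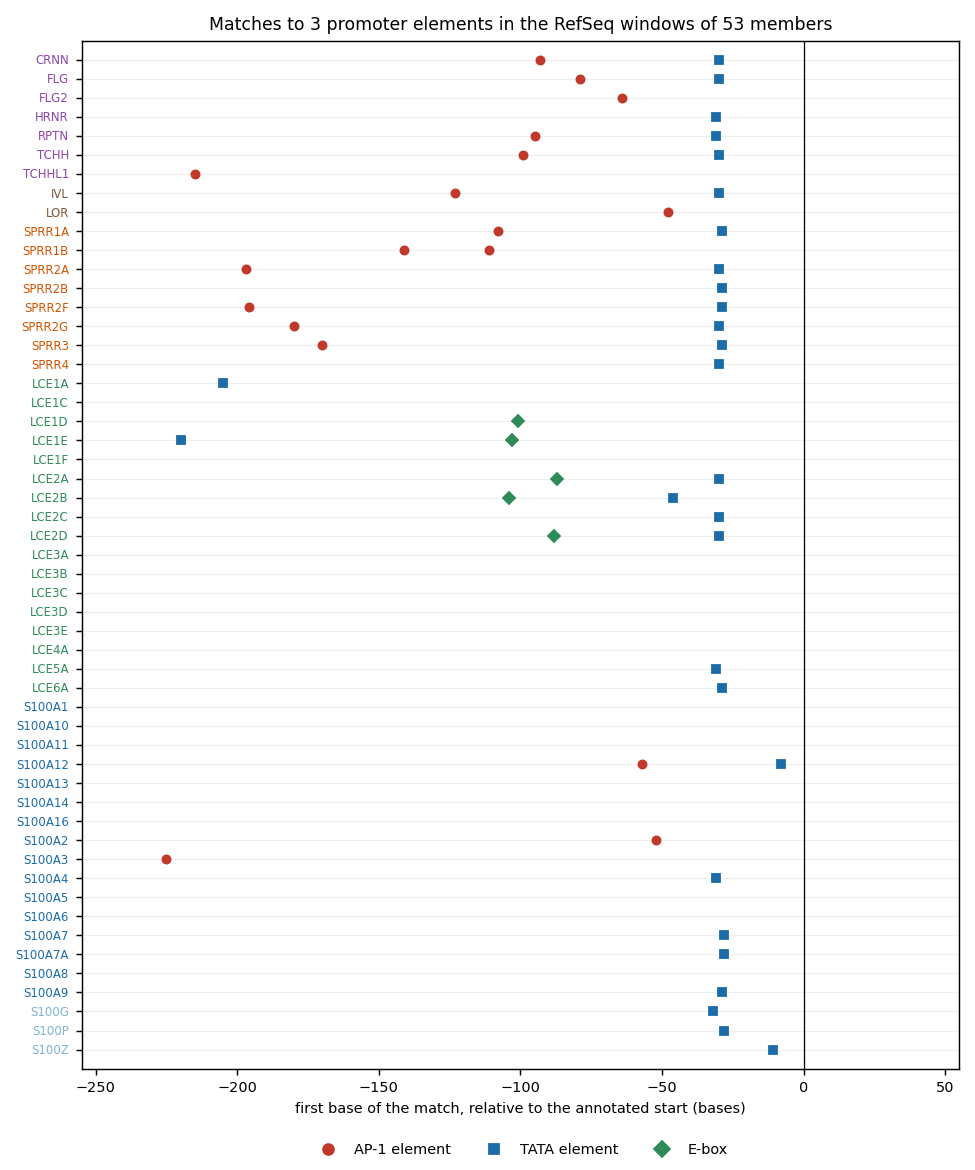
Each row is 1 of 53 members with a RefSeq promoter window, grouped and coloured by subfamily, and the horizontal axis gives the first base of a match relative to the annotated start. Circles are AP-1 elements, squares TATA elements and diamonds E-boxes: AP-1 elements stand in 17 windows and in 0 of 17 LCE windows, and most squares form a column near 30 bases before the start.

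No member differed between the groups past the threshold. With limma fitted on all symbols, 0 of 58 members passed an adjusted p of 0.05, against 0% of all 19184 symbols, and the lowest adjusted p = 0.942 was that of the whole table. At an unadjusted p under 0.05 there were 2 members (3.45%), S100A6 and S100A8, against 3.76% of all symbols. With dye as a block 0 of 58 passed, against 0% of all symbols, and 1 member (1.72%), S100A6, had an unadjusted p under 0.05, against 4.96% of all symbols. In a bulk sample, fewer cells that express a gene and less RNA per cell cannot be told apart. Of the 58 members, 33 read higher and 25 lower in the samples labelled MTA2 siRNA, with a median difference of 0.038, against 0.029 over all symbols. In 48 members (82.8%) the 95% interval of the difference lay inside a 2-fold change in either direction, against 78.8% of all symbols. The remaining 10 were LCE1B, S100A6, S100A7, S100A7L2, S100A8, S100A11, S100G, SPRR1A, SPRR2A and TCHH, where these samples leave a 2-fold change within the interval.

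**Figure D2:**
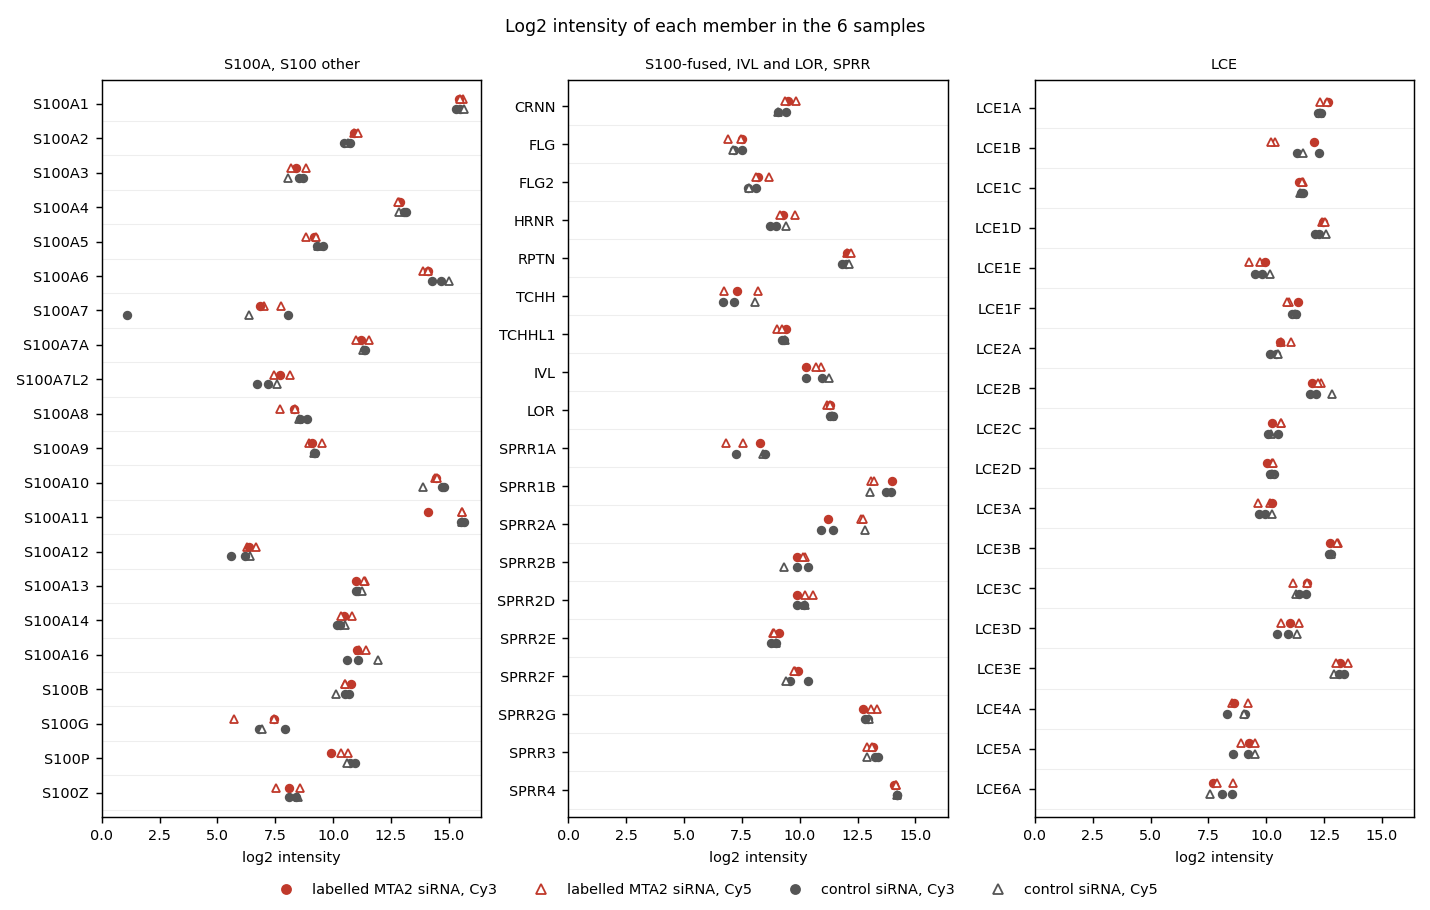
Points give the log2 intensity of each member in each sample, in red for the samples labelled MTA2 siRNA and in grey below them for the control samples, with filled circles for Cy3 and open triangles for Cy5. Most members show mixed colours within a narrow range, S100A7 has 1 control point at 1.10, and the open triangles of SPRR2A stand right of its circles in both groups.

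In 7 members (12.1%) the groups did not overlap, against 9.48% of all symbols. FLG2, LCE2A and S100A2 lay higher in every sample labelled MTA2 siRNA than in any control (5.47% of all symbols did so), and S100A5, S100A6, S100A8 and SPRR4 lay lower (4.01% of all symbols). For each of the 7 an exact two-sided permutation test gave p = 0.10, the smallest possible with 3 against 3, and limma's adjusted p was 0.942 or above. The SPRR4 difference was small, at -0.074 (SE 0.14).

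Among the S100A genes, which sense calcium through EF-hands, 9 of 17 read higher and 8 lower, with a median difference of 0.012. S100A6 (calcyclin), a cytoplasmic S100 protein linked to proliferating cells, gave the smallest p of the members. It read 13.87, 14.09 and 14.11 in the samples labelled MTA2 siRNA, against 14.28, 15.01 and 14.67 in the control samples. All values of the first group lay below all of the second, and the spread was widest among the controls. The difference was -0.63 (SE 0.22, 95% interval -1.15 to -0.11; limma p = 0.0234 and adjusted p = 0.942, exact permutation p = 0.10). With dye as a block it was -0.70, within Cy3 -0.39 and within Cy5 -1.02, where the single control sample held the highest value.

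S100A8 and S100A9 encode the 2 chains of calprotectin, an antimicrobial and inflammatory heterodimer that keratinocytes also make under stress. S100A8 read 7.69, 8.30 and 8.34 in the samples labelled MTA2 siRNA, against 8.87, 8.54 and 8.55 in the control samples. Its groups did not overlap, with sample 4 the lowest, and it differed by -0.54 (SE 0.23, limma adjusted p = 0.942), or -0.33 without sample 4. S100A9 read 8.96, 9.07 and 9.50, against 9.21, 9.17 and 9.18 in the control samples. These controls lay within a very narrow range inside that of the other group, and the S100A9 difference was -0.0073 (SE 0.19). The difference between the 2 chains was not tested.

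S100A10 and S100A11 stand at the other end of the cluster, next to each other, and bind annexins at the membrane: S100A10 pairs with annexin A2, and S100A11 binds annexin A1 and is a substrate of envelope cross-linking. S100A10 read 14.42, 14.45 and 14.50 in the samples labelled MTA2 siRNA, against 14.77, 13.86 and 14.70 in the control samples, a difference of 0.012 (SE 0.26). S100A11 read 15.55, 14.10 and 15.57, against 15.65, 15.57 and 15.54 in the control samples. Sample 5 alone stood apart, and the S100A11 difference of -0.51 (SE 0.39) was -0.028 without it. S100A11, like S100A1 with values of 15.30 to 15.64, lay near the top of the scale at 16, where readings may be compressed.

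S100A2, a p63-responsive gene of basal squamous cells, read 10.89, 10.88 and 11.07 in the samples labelled MTA2 siRNA, against 10.48, 10.65 and 10.75 in the control samples. Its groups were apart by a small gap, and the difference of 0.32 (SE 0.16, limma adjusted p = 0.942) was 0.27 within Cy3 and 0.33 within Cy5. S100A5, whose role is less well known, read 8.81, 9.18 and 9.27, against 9.55, 9.33 and 9.31 in the control samples, and differed by -0.31 (SE 0.18), or -0.17 without sample 4. S100A4, a motility-associated S100 protein that binds non-muscle myosin, read 12.83, 12.90 and 12.81, against 13.13, 12.83 and 13.08 in the control samples. The S100A4 values overlapped, its high controls were the Cy3 samples, and the difference was -0.16 (SE 0.16), or -0.010 within Cy5. The rows averaged for S100A4 had dye differences (Cy5 minus Cy3) of 0.016 and -0.36.

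S100A7 (psoriasin), induced in inflamed and transformed squamous epithelium, showed the widest spread of the members. It read 7.03, 6.85 and 7.75 in the samples labelled MTA2 siRNA, against 1.10, 6.38 and 8.03 in the control samples. Control sample 1 stood far below the rest, and the S100A7 difference of 2.04 (SE 1.60, limma adjusted p = 0.942) was 0.0037 without it. S100A7L2, a related sequence, read 7.43, 7.70 and 8.13, against 6.72, 7.57 and 7.17 in the control samples, and differed by 0.60 (SE 0.28), or 0.38 without control sample 1. S100A7A, on its own row, differed by -0.083 (SE 0.19), with the opposite sign. S100A12, of the calgranulin group and known from neutrophils, read 6.28, 6.35 and 6.67, against 5.59, 6.40 and 6.20 in the control samples, with overlap and a difference of 0.37 (SE 0.25), or 0.13 without control sample 1 and 0.017 after quantile normalisation again.

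The other S100A members had small differences: S100A13 0.12, S100A14 0.21 (0.084 without sample 4), S100A3 0.054, S100A1 0.053 and S100A16 -0.014. Of the 4 S100 genes outside chromosome 1, 1 read higher and 3 lower, with a median difference of -0.31, against 0.029 over all symbols. With dye as a block their median was -0.21, against 0.018 over all symbols. S100P, often high in carcinomas and known to promote growth, read 10.33, 9.91 and 10.66 in the samples labelled MTA2 siRNA, against 10.72, 10.61 and 10.96 in the control samples. The ranges overlapped slightly, and the S100P difference was -0.46 (SE 0.23, limma adjusted p = 0.942), with -0.93 within Cy3, -0.11 within Cy5 and -0.27 without sample 5. S100Z differed by -0.26 (-0.00091 without sample 6), S100G, the vitamin D-dependent intestinal calcium carrier, by -0.35 (0.22 without sample 4), and S100B, best known from glia, by 0.17.

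Of the 7 S100-fused genes, 6 read higher and 1, TCHHL1, lower (difference -0.096), with a median difference of 0.12, against 0.029 over all symbols. With dye as a block 5 read higher and 2 lower, TCHH at -0.12 being the second. CRNN, encoding cornulin of the oesophageal surface layers, read 9.82, 9.50 and 9.35 in the samples labelled MTA2 siRNA, against 9.40, 9.05 and 9.06 in the control samples. Only the lowest value of the first group and the highest control overlapped, and the CRNN difference was 0.39 (SE 0.19, limma adjusted p = 0.942), with 0.27 within Cy3, 0.53 within Cy5 and 0.25 without sample 4. FLG2, a filaggrin relative of the upper epidermis, read 8.68, 8.21 and 8.10, against 7.76, 7.81 and 8.10 in the control samples. The FLG2 groups nearly touched, and the difference was 0.44 (SE 0.21), or 0.27 without sample 4. FLG, whose product bundles keratin filaments, read 6.90, 7.51 and 7.45, against 7.18, 7.13 and 7.52 in the control samples, with full overlap and a difference of 0.0054 (SE 0.22). Hornerin (HRNR) differed by 0.36 (0.17 without sample 4), repetin (RPTN) by 0.12 and trichohyalin (TCHH), a hair follicle and tongue protein, by 0.10.

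IVL and LOR, the early and the major structural envelope proteins, both read lower. IVL read 10.92, 10.28 and 10.71 in the samples labelled MTA2 siRNA, against 10.95, 11.29 and 10.29 in the control samples. In each group the Cy3 and Cy5 samples stood at different heights, with overlap between groups, and the IVL difference was -0.20 (SE 0.30), or -0.40 with dye as a block. LOR read 11.17, 11.33 and 11.30, against 11.30, 11.39 and 11.43 in the control samples, a difference of -0.11 (SE 0.15) between overlapping ranges.

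**Figure D3:**
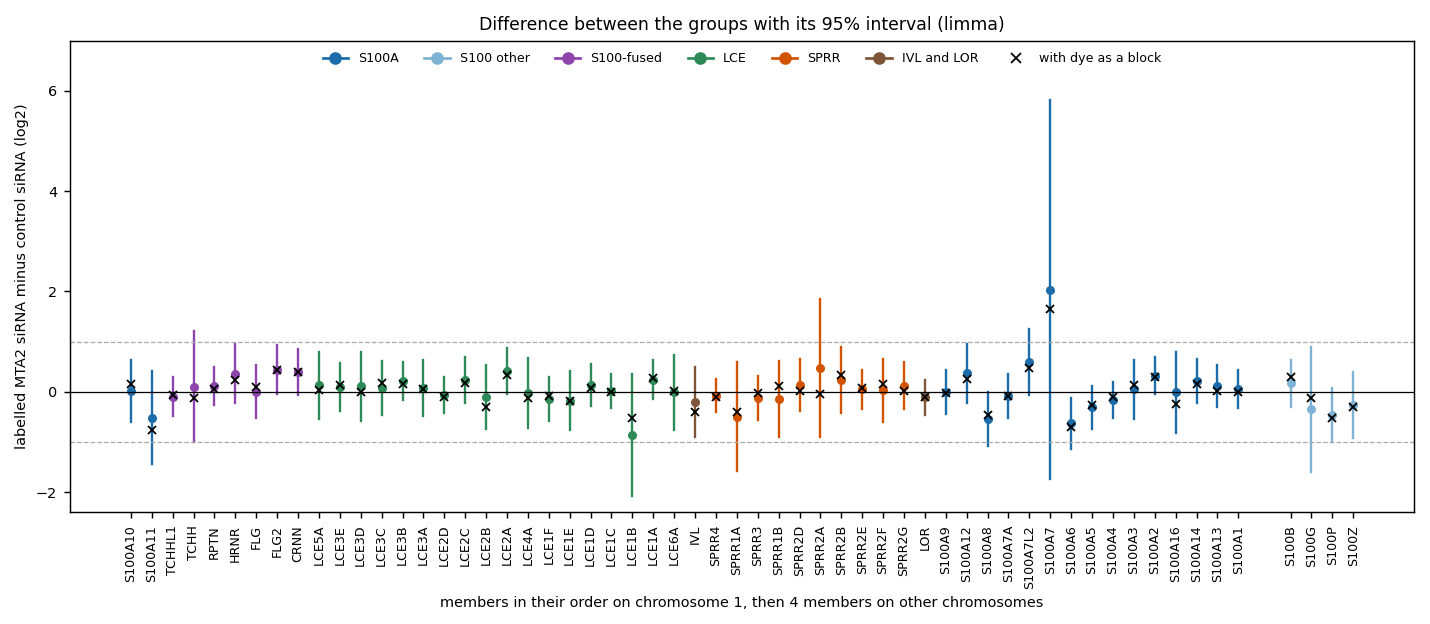
Points give the difference between the samples labelled MTA2 siRNA and the control samples (log2) for each member, bars its limma 95% interval and crosses the value with dye as a block. Members run in their order on chromosome 1, followed by the 4 on other chromosomes; dashed lines mark a 2-fold change, and the S100A7 bar, from -1.74 to 5.82, is the widest.

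The LCE genes, expressed late in cornified skin, had 11 of 18 members higher and 7 lower, with a median difference of 0.078. In 13 of the 18 the difference was under 0.2 in size. With dye as a block the median of the 18 was 0.026, against 0.018 over all symbols. LCE2A read 10.66, 10.60 and 11.07 in the samples labelled MTA2 siRNA, against 10.42, 10.49 and 10.18 in the control samples, without overlap, and differed by 0.41 (SE 0.19, limma adjusted p = 0.942), or 0.27 without sample 6. LCE1A read 12.34, 12.67 and 12.63, against 12.22, 12.32 and 12.36 in the control samples, with a difference of 0.25 (SE 0.16). LCE1B read 10.36, 12.06 and 10.19, against 11.33, 11.60 and 12.27 in the control samples. The low LCE1B values were the Cy5 samples labelled MTA2 siRNA, so its difference of -0.86 (SE 0.52) was 0.26 within Cy3 and -1.32 within Cy5. All 5 LCE3 genes read higher, by 0.076 to 0.22, while 54.5% of all symbols did so. With dye as a block LCE3D read -0.00075, and 2 of the 5 had the same sign within both dyes.

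The SPRR genes had 6 of 10 members higher and 4 lower, with a median difference of 0.038, and the 6 higher ones were the 6 SPRR2 genes, at 0.026 to 0.48, while 54.5% of all symbols read higher. In 0 of these 6 did the difference have the same sign within Cy3 and within Cy5, against 54.8% of all symbols. Fitted with dye as a block, 5 of the 6 read higher and 1 lower, with a median of 0.047. In that fit 10171 of all 19184 symbols read higher. SPRR1B, an envelope cross-bridge protein induced by stress, read 13.09, 13.97 and 13.22 in the samples labelled MTA2 siRNA, against 13.73, 13.05 and 13.94 in the control samples, a difference of -0.14 (SE 0.32). SPRR2A read 12.65, 11.23 and 12.74, against 11.45, 12.82 and 10.92 in the control samples, a difference of 0.48 (SE 0.58). SPRR3, abundant in the oesophageal lining, read 12.90, 13.17 and 13.11, against 13.26, 12.92 and 13.37 in the control samples, a difference of -0.13 (SE 0.18). In each of these 3 genes the values split by dye within both groups. The rows averaged for SPRR3 had dye differences (Cy5 minus Cy3) of -0.52 and -0.036. On the latter row the samples labelled MTA2 siRNA did not split by dye. With dye as a block the siRNA differences were 0.12 for SPRR1B, -0.039 for SPRR2A and -0.032 for SPRR3.

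Dye was therefore followed through the members. In a limma fit with siRNA and dye as terms, 0 of 58 members passed an adjusted p of 0.05 for dye, against 0.349% of all symbols. At an unadjusted p under 0.05 there were 6 members (10.3%), SPRR2A, SPRR1B, LCE2B, IVL, S100A16 and S100B, against 18% of all symbols. SPRR2A averaged 12.74 in the Cy5 samples and 11.20 in the Cy3 samples, a dye difference of 1.55 in the fit with siRNA as a term (SE 0.19, limma adjusted p = 0.0559). The call depended on the setting: the SPRR2A adjusted p was 0.0143 with dye as the only limma term, while with each sample left out in turn the lowest adjusted p of any member for dye was 0.109 to 0.29. SPRR1B went the other way, with 13.12 in the Cy5 samples and 13.88 in the Cy3 samples and a dye difference of -0.80 (SE 0.14, limma adjusted p = 0.119). Cy5 and Cy3 samples did not overlap in 11 members (19%), against 27.6% of all symbols. Of these 11, 5 were SPRR genes: SPRR2A, SPRR2D and SPRR2G were higher in Cy5, and SPRR1B and SPRR3 lower. For SPRR3 this held for the average of its rows but not for each of them.

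The dye difference was larger in size than the siRNA difference in 35 of 58 members (60.3%), against 62.4% of all symbols, with median sizes of 0.22 for dye and 0.14 for siRNA. Differences within Cy3 and within Cy5, which share no sample, had the same sign in 29 of 58 members (50%), against 54.8% of all symbols. By subfamily that count was 11 of 17 S100A genes, 4 of 7 S100-fused genes, 7 of 18 LCE genes and 2 of 10 SPRR genes.

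**Figure D4:**
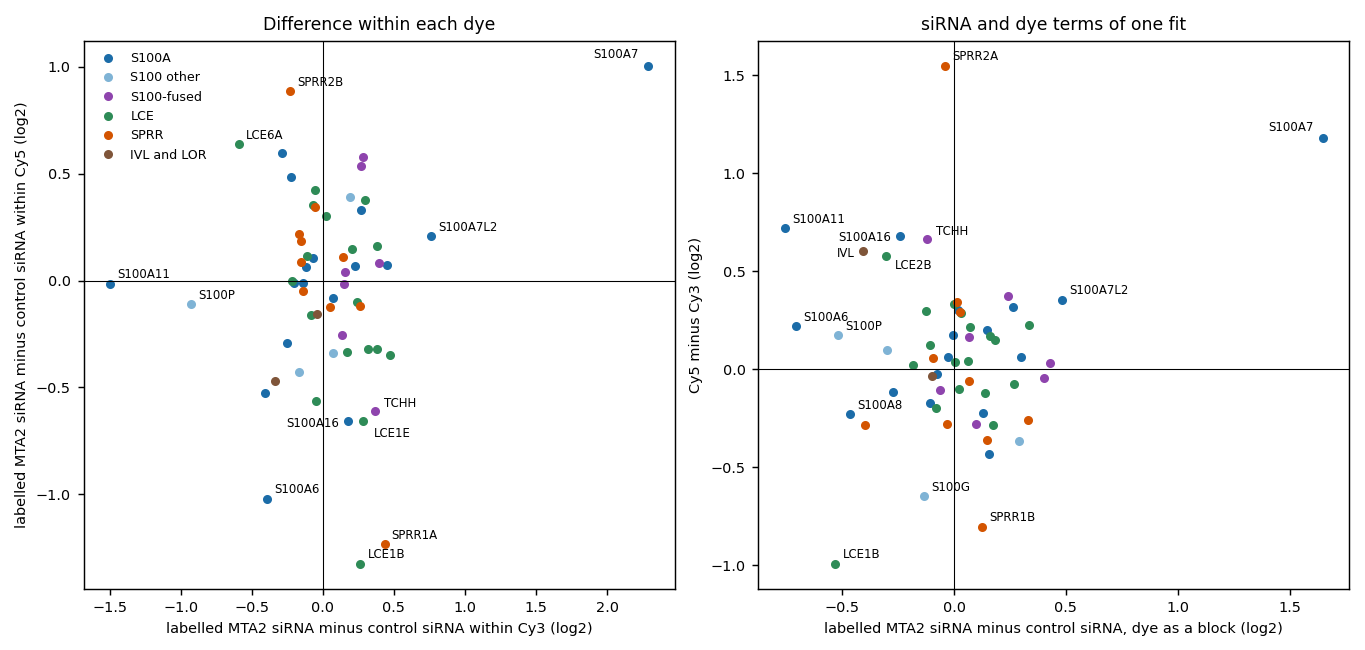
The left panel sets the difference (log2) within the Cy3 samples against that within the Cy5 samples for each member, and the right panel the siRNA difference with dye as a block against the dye difference (Cy5 minus Cy3). On the left, points fill all 4 quadrants, with 29 of 58 of the same sign in both dyes; on the right, SPRR2A, at 1.55, and SPRR1B, at -0.80, differ by dye with siRNA differences of -0.039 and 0.12.

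Members measured by more than 1 row showed how far rows of a gene diverged. S100A13, a copper-binding S100 protein of non-classical secretion, had 5 rows, whose differences were -0.032, 0.38, 0.018, 0.27 and -0.038. The S100A4 rows differed by -0.029 and -0.30, and those of SPRR3 by -0.18 and -0.075. SPRR1A, a paralog of SPRR1B, differed by -0.93 on the row whose values ran from 5.10 to 8.31, and by -0.060 on the row whose values ran from 8.53 to 8.99. The LCE1C rows gave 0.014 and 0.016.

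Along chromosome 1, medians were compared by stretch, without a test. S100A10 and S100A11 had a median difference of -0.25. The 7 genes from TCHHL1 to CRNN had a median difference of 0.12 and the 18 of the LCE cluster 0.078. The 11 of IVL and the SPRR cluster had 0.026, LOR -0.11 and the 15 from S100A9 to S100A1 0.053. With dye as a block the values, from S100A10 and S100A11 onwards, were -0.30, 0.099, 0.026, 0.015, -0.098 and -0.0057 in that order. Over all symbols the median with dye as a block was 0.018. The 17 members with an AP-1 element in their window had a median difference of 0.0545 (11 higher, 6 lower), and the 36 without one 0.0022 (18 higher, 18 lower). With dye as a block the medians of the 17 and the 36 were 0.0651 and -0.0032. The 29 members with a TATA element had a median of 0.0054, or -0.0285 with dye as a block, and the 24 without one 0.034, or 0.0105 with the block. These medians were not tested.

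Genes that work with the members also gave 0 calls by limma, and their values follow. Among 29 cornified envelope partners were transglutaminases, desmosomal and lipid-processing genes, keratins, proteases and protease inhibitors. Of the 29, 19 read higher and 10 lower, with a median of 0.14, while 54.5% of all symbols read higher. At an unadjusted p under 0.05 there were 2 of the 29, against 3.76% of all symbols. Fitted with dye as a block there was 1, against 4.96% of all symbols. CDSN, the corneodesmosome adhesion protein, read 9.32, 9.16 and 9.49 in the samples labelled MTA2 siRNA, against 9.58, 9.93 and 9.78 in the control samples, a difference of -0.44 (SE 0.18). SPINK5, an inhibitor of the kallikreins that cut it, read 11.38, 11.05 and 11.33, against 10.17, 10.99 and 10.77 in the control samples, a difference of 0.61 (SE 0.24). For CDSN and SPINK5 the groups did not overlap, as for 4 of the 29 partners in all, against 9.48% of all symbols. Without control sample 1 the SPINK5 difference was 0.37. Of 8 further genes of the complex, 2 read higher and 6 lower, with a median of -0.13, while 54.5% of all symbols read higher. Fitted with dye as a block, 3 read higher and 5 lower, with a median of -0.060. In 2 of the 8, PGLYRP4 and SMCP, the groups did not overlap, against 9.48% of all symbols. PGLYRP4, an antibacterial peptidoglycan-binding protein, read 13.73, 15.18 and 15.08 in the samples labelled MTA2 siRNA, against 15.62, 15.29 and 15.60 in the control samples. Its difference was -0.84 (SE 0.39), with -0.43 within Cy3, -0.89 within Cy5 and -0.37 without sample 4, the lowest. SMCP, a sperm mitochondrial protein, read 11.26, 11.17 and 11.35, against 11.83, 11.39 and 11.61 in the control samples, a difference of -0.35 (SE 0.17).

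Among 16 receptors and binding partners of S100 proteins, 9 read higher and 7 lower, with a median of 0.087, and 2 had an unadjusted p under 0.05, against 3.76% of all symbols. With dye as a block 8 read higher and 8 lower, with 1 at an unadjusted p under 0.05, against 4.96% of all symbols. ANXA1, the annexin that S100A11 binds, read 12.61, 11.11 and 12.37 in the samples labelled MTA2 siRNA, against 13.32, 13.11 and 12.95 in the control samples. Its groups did not overlap, and it differed by -1.10 (SE 0.39, limma adjusted p = 0.942), or -0.64 without sample 5. CD36, a scavenger receptor reported to take up calprotectin with fatty acids, read 7.81, 7.91 and 8.38, against 6.56, 7.80 and 7.09 in the control samples, a difference of 0.88 (SE 0.33), or 0.59 without control sample 1, with no overlap between the groups. ANXA1 and CD36 were the 2 of the 16 without overlap, against 9.48% of all symbols. Of 22 transcriptional regulators of the complex, 10 read higher and 12 lower, with a median of -0.024. In 3 of the 22 the groups did not overlap, against 9.48% of all symbols. At an unadjusted p under 0.05 there was 1 of the 22, against 3.76% of all symbols. Fitted with dye as a block there were 3 (JUN, GRHL1 and JUND), against 4.96% of all symbols. JUN, a subunit of AP-1, read 9.18, 8.54 and 9.72 in the samples labelled MTA2 siRNA, against 8.06, 8.75 and 8.28 in the control samples, a difference of 0.79 (SE 0.33) with overlap, or 0.50 without sample 6. GRHL1, a grainyhead factor of epidermal differentiation, read 8.49, 7.64 and 8.66, against 9.19, 8.76 and 8.78 in the control samples, a difference of -0.65 (SE 0.30) without overlap, or -0.34 without sample 5.

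The 3 marker lists held 0 genes called by limma. They held 0 with an unadjusted p under 0.05, against 3.76% of all symbols. Fitted with dye as a block there was 1 (KRT4), against 4.96% of all symbols. Squamous epithelium markers had a median difference of 0.0030 (5 higher, 5 lower), or -0.061 with dye as a block (2 higher, 8 lower). KRT4, a keratin of the oesophageal lining, read 10.28, 10.41 and 10.59 in the samples labelled MTA2 siRNA, against 10.05, 9.10 and 10.11 in the control samples, and differed by 0.68, or 0.35 without control sample 2. EPCAM, an epithelial adhesion protein, read 9.73, 11.22 and 10.81, against 11.54, 11.15 and 10.89 in the control samples, and differed by -0.61, or -0.18 without sample 4.

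Blood cell markers had a median difference of 0.052 (6 higher, 4 lower). CD3E, of the T cell receptor complex, read 10.65, 12.13 and 10.92 in the samples labelled MTA2 siRNA, against 11.98, 12.07 and 11.96 in the control samples, and differed by -0.77, with 0.16 within Cy3 and -1.28 within Cy5. ITGAM, a myeloid integrin, read 9.01, 8.88 and 9.72, against 8.62, 8.79 and 8.71 in the control samples, and differed by 0.50, or 0.24 without sample 6. Fibroblast markers had a median difference of 0.12 (6 higher, 2 lower). PDGFRA, a growth factor receptor, read 8.03, 8.46 and 8.9998, against 5.11, 8.66 and 8.31 in the control samples, and differed by 1.14, or 0.011 without control sample 1, which stood alone. DCN, a matrix proteoglycan, read 12.32, 12.23 and 12.23, against 12.13, 12.02 and 12.27 in the control samples, and differed by 0.12.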

How the data were processed

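The authors deposited 1 matrix of log2 intensities, 34558 rows by 6 samples, and a second table with the same values (207348 of 207348 equal). Per the labels' protocols, double-stranded cDNA was labelled with a one-colour NimbleGen kit and scanned on a GenePix scanner. The dye field nevertheless names Cy3 for some samples and Cy5 for others, and dye was used as labelled. Background correction, normalisation and build: not given in the sources used here. Rows were averaged per deposited symbol. The main model was limma's (version 3.58.1, R 4.3.3; lmFit, eBayes, two-sided, no filter, no covariate) over all 19184 symbols, with Benjamini-Hochberg adjustment at 0.05. Dye was a second term in an alternative fit. The fit was tested on simulated data with the spread of these samples and no dye effect. It recovered 21.2% of 2-fold and 71% of 4-fold changes, with 6 false calls per run. Arrays have no read depth: the 3 samples per group limit the precision. Single members also had exact permutation tests. Differences are samples labelled MTA2 siRNA minus control on the log2 scale. Every member may be named. Values per sample are given for 16 chosen members, the 12 with the smallest p and those called. They are also given for the 2 genes with the smallest p in each comparison list. The members and lists were chosen with earlier results of these data known. RefSeq tables (GRCh38.p14) gave gene order and promoters. Motifs were chosen from background knowledge. Figures were drawn with matplotlib 3.10.9.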

Additional observations from a re-analysis of the deposited data

How the results depend on the processing

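No member passed the siRNA threshold under any alternative run, and the lowest adjusted p over members ranged from 0.478 (without sample 5) to 1.00. At an unadjusted p under 0.05 there were 0 to 3 members with 1 sample left out: 0 without control sample 3, 3 (5.17%) without sample 5 (LCE1B, S100A6, S100A8; 7.39% of all symbols) and 3 without sample 6 (S100A6, S100A8, S100P; 2.04% of all symbols). There were 4 (6.9%) with array weights, against 8.41% of all symbols, and 4 within Cy5, against 5.59%. Over all symbols the calls numbered 4 within Cy3, 0 to 3 with each sample left out, and 88 if a 2-fold difference and an unadjusted p under 0.05 sufficed. Members called for dye numbered 1 among symbols above the median level (1.37% of all symbols there), 1 with dye alone (1.01%), 1 after quantile normalisation again (0.537%; SPRR2A each time) and 2 with a trended robust variance (1.46%; SPRR2A and SPRR1B), but 0 with any sample left out (0.00521% to 0.182% of all symbols). Subfamily medians that moved by over the spread between samples were those of S100A within Cy3 (-0.12), the other S100 genes within Cy3 (-0.046) and with a sample left out (-0.43 to -0.11), and the S100-fused genes within Cy3 (0.27), with array weights (0.29) and with a sample left out (0.12 to 0.44). Over all 58 members, 6 signs turned with dye as a block, 18 within Cy3, 13 within Cy5 and 6 to 12 with a sample left out. Among the 23 members with values per sample, signs turned, none past the threshold, for FLG (-0.029 with array weights, -0.041 after quantile normalisation, -0.11 to 0.20 leaving 1 out), LCE1B (0.26 within Cy3), S100A10 (-0.15 with array weights, -0.28 within Cy3, -0.28 to 0.17 leaving 1 out), S100A9 (0.062 within Cy5, -0.17 to 0.10 leaving 1 out), SPRR1B (0.12 with dye as a block, 0.14 within Cy3, 0.11 within Cy5, -0.42 to 0.042 leaving 1 out), SPRR2A (-0.039 with dye as a block, -0.13 within Cy5), SPRR3 (0.087 within Cy5) and IVL (-0.48 to 0.018 leaving 1 out); the cause was not tested. Fits within a dye have an arm of 1 sample, whose variation is assumed to equal the other arm's. No paired analysis was made because the labels give no pairing of samples between the groups.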

Other observations

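S100A11 and its partner ANXA1, set side by side after their values were seen, were both lowest in sample 5, labelled MTA2 siRNA: S100A11 at 14.10 and ANXA1 at 11.11. The other 5 samples ran from 15.54 to 15.65 for S100A11 and from 12.37 to 13.32 for ANXA1. A lowest value in sample 5 was not particular to this pair: S100P, IVL, GRHL1 and CDSN had it too. In others, such as S100A8 and PGLYRP4, sample 4 was the lowest. How common either was over all symbols was not counted.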
